A study of Homo sapiens with 8 samples.

Results

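DDX and DHX proteins are RNA helicases of the DEAD-box and DEAH-box families. They use ATP to unwind RNA duplexes or to strip proteins from RNA, and they drive splicing, ribosome assembly, mRNA export, translation and mRNA decay in every nucleated cell. Some relatives sense viral RNA, and several of the genes described here, such as DHX9, DDX3X and DHX36, have also been linked to that task. The genes described were those whose symbol carries DDX or DHX and a number, apart from DDX58, DHX58, DDX60, DDX60L and DDX21, which were left out by name. They numbered 49 of the 57992 genes listed for Molm13, with 34 DDX and 15 DHX genes, and all 49 were also among the 58174 genes listed for THP1.

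Bulk mRNA-seq compared Molm13 and THP1, human AML lines of monocytic type with MLL (KMT2A) fusions, in which a hairpin RNA targeted PRMT9, an arginine methyltransferase (shPRMT9), or served as control (shCtrl). The hairpins were induced by doxycycline in all 4 groups, and each group held 2 libraries. In the THP1 libraries' names the letters OCI, known from names of other leukemia lines, also appear. Libraries 1 and 2 of shPRMT9 were read as replicates, although hairpins are numbered in the same way in the study. Nothing states that libraries of a group came from separate cultures, so P values measure only the spread between these libraries, which may be technical. The bulk levels cannot tell less RNA per cell from fewer cells of a type.

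Library totals ranged from 18720950 to 27356870 counts. PRMT9 was at 16.3 and 14.8 CPM (read counts scaled to the total of the tested genes, with TMM factors) in Molm13 shCtrl and at 2.19 and 2.63 in shPRMT9. In THP1 it was at 12.4 and 12.7 CPM in shCtrl and at 2.38 and 2.74 in shPRMT9. Its log2 fold change was −2.68 ± 0.14 (SE, n = 2 libraries a group) in Molm13 and −2.29 ± 0.13 in THP1. Of 12 monocytic AML markers, 12 were above 1 CPM in Molm13 and 11 in THP1, where MEIS1 was the exception. Their summed level rose from between 1250 and 1260 CPM to between 1940 and 1960 in Molm13 and from between 2420 and 2450 to between 3740 and 3890 in THP1, and its part in the helicase results was not tested. LYZ made up much of this sum, at a mean of 634.2 and 1004 CPM in Molm13 and of 1886 and 3082 in THP1. Of the 12 tested in Molm13, 9 rose and 3 (MPO, HOXA10 and FCGR1A) fell, and of the 11 tested in THP1, 7 rose and 2 (MPO and HOXA10) fell. Lymphoid and erythroid marker genes stayed below 1 CPM on average in every group apart from PAX5 and EPOR. PAX5 was at a mean of 42.4 CPM in Molm13 shCtrl and 39.1 in shPRMT9 (FDR 0.060) and rose from 2.80 to 11.5 in THP1 (FDR 7.4e-13), and EPOR rose from 10.3 to 15.1 in Molm13 (FDR 1.9e-06) and fell from 9.73 to 7.43 in THP1 (FDR 0.0095). Their part in the helicase results was not tested either.

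The upstream regions of 3 genes are printed because DDX39A, DHX9 and DDX3X were among the helicases that fell in Molm13 and no listed gene covers these bases. Each is the 250 bases before the RefSeq start on GRCh38.p14, read 5′ to 3′ on the gene's strand. Capitals mark CCAAT boxes on either strand.
DDX39A, minus strand, chr19:14419384-14419633: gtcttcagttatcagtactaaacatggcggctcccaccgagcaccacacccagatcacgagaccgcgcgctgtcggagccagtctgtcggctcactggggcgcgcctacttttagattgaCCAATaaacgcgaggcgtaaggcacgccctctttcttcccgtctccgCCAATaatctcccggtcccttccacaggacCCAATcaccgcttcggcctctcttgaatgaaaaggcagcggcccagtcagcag
DHX9, plus strand, chr1:182839097-182839346: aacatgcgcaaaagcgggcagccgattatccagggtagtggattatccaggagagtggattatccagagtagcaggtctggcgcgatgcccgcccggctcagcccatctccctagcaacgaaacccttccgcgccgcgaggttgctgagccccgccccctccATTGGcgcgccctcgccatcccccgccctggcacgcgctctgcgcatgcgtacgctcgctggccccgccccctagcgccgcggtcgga
DDX3X, plus strand, chrX:41333058-41333307: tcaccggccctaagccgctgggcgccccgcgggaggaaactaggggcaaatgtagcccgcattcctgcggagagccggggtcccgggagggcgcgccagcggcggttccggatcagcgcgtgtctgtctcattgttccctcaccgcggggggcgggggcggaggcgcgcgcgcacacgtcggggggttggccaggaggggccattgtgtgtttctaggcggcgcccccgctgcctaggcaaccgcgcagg
The DDX39A region held 3 CCAAT boxes, the DHX9 region 1 and the DDX3X region 0. Upstream sequence was found for 45 of the 49 genes and not for DDX18, DDX49, DDX52 and DHX33. The letters CCAAT were in 46.7% of these 45 regions and in 35.3% of the 9512 regions of genes tested in Molm13. Of 7 motifs searched on both strands, the ETS letters CCGGAAG were in 31.1% of the helicase regions and 16.6% of the regions of tested genes, and the E-box letters CACGTG in 15.6% and 9.1%. The interferon-stimulated response element was in 1 helicase region, that of DHX15, or 2.22% against 2.57% of regions of tested genes. The remaining 3 motifs were the CRE core TGACGT, the TATA box TATAAA and the NRF1 motif, which were in 17.8%, 4.44% and 11.1% of the helicase regions and in 10.5%, 5.29% and 10.8% of the regions of tested genes.

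In the shCtrl libraries, DDX5, DHX9 and DDX17 had the highest levels per length of the 49 genes in both lines. DDX5 was at 112.3 ± 0.93 RPKM (SD, n = 2) in Molm13 and 108.8 ± 0.72 in THP1, DHX9 at 111.6 ± 2.0 and 91.3 ± 0.13, and DDX17 at 98.6 ± 3.2 and 75.1 ± 0.82. The next highest level was that of DDX39A in Molm13 (58.2 ± 0.25 RPKM, and 43.6 ± 0.20 in THP1) and of DHX15 in THP1 (45.8 ± 0.089, and 46.8 ± 0.15 in Molm13). The level that differed most between the lines among genes above 1 RPKM in either was that of DHX32, at 23.2 ± 0.30 RPKM in Molm13 and 0.869 ± 0.17 in THP1. A cell line and the handling of its libraries cannot be told apart. DDX47 is overlapped along its whole length by APOLD1 on the same strand and was at only 22 to 70 counts per library, so its counts are uncertain.

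**Figure D1:**
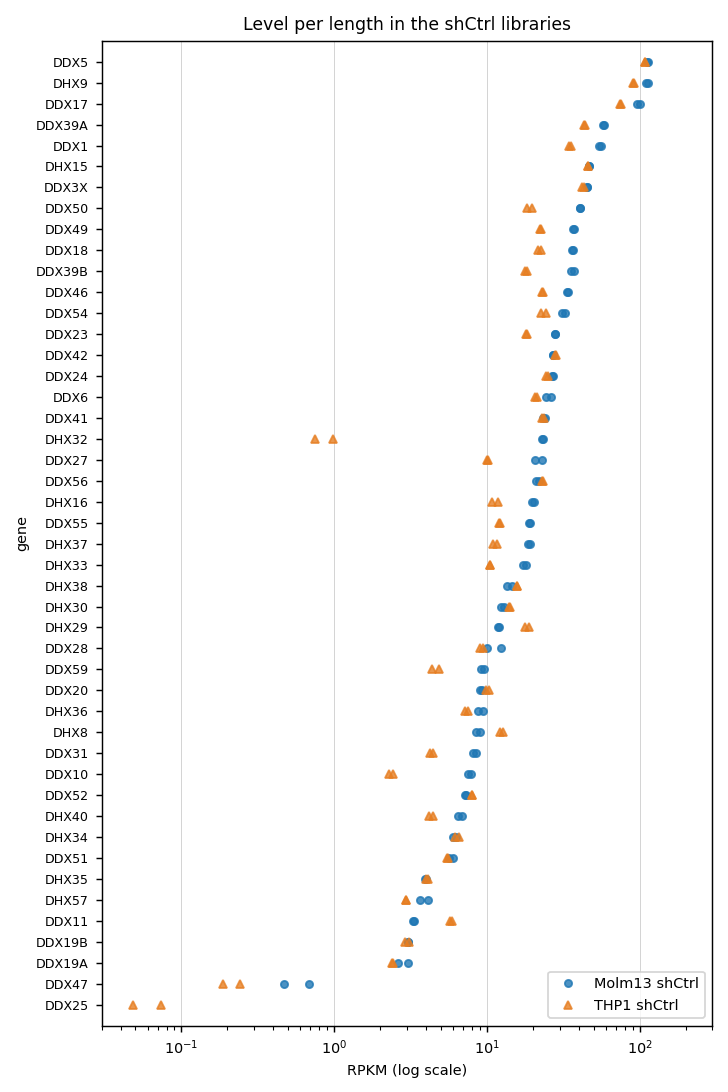
Level of the 46 helicase genes tested in THP1 in the 4 shCtrl libraries, in RPKM on a log axis, with circles for the Molm13 and triangles for the THP1 libraries and genes ordered by the Molm13 mean. DDX5, DHX9 and DDX17 lead in both lines, and DHX32 shows the wide gap between 23.2 and 0.869 RPKM.

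The germline genes were at the bottom. DDX4, a marker of germ cells, had 2 to 6 counts per library and DDX43 had 0 to 4. DDX53 had 0 counts in all 8 libraries, which allows up to 3 counts in each. DDX25 had 1, 0, 0 and 0 counts in the Molm13 libraries and 21 and 15 (shCtrl) against 23 and 10 (shPRMT9) in THP1. These 4 genes did not pass the filter on low counts in Molm13, and DDX4, DDX43 and DDX53 did not in THP1, which left 45 and 46 genes tested.

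In Molm13, most helicase genes of this family fell with shPRMT9. Of the 45 tested, 33 (73.3%) were lower and 4 (8.89%) higher at an FDR below 0.05 (edgeR's quasi-likelihood test, Benjamini-Hochberg adjustment over 16446 genes), and 8 were not called. Over all genes tested, 33.5% were called lower and 33.4% higher. The median log2 fold change of the 45 genes was −0.29, with a range from −1.01 to 0.60, against a median of 5e-04 over all genes. The 4 higher genes were DDX19B, DDX27, DDX42 and DHX40, and the 8 not called were DDX6, DDX17, DDX39B, DDX41, DDX47, DDX59, DHX16 and DHX38. Both shPRMT9 libraries lay below both shCtrl libraries for 35 genes, where 40.8% of all genes did so, and above them for 5, where 41.2% of all genes did so. The 49 genes together made up 7492 and 7642 CPM in shCtrl and 5982 and 5965 in shPRMT9.

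Of the helicases, 9 passed as DEGs, which also needed a fold change above 1.5 or below 1/1.5 and more than 1 RPKM in a library. DDX5, DDX11, DDX20, DDX39A, DDX46, DHX9, DHX29 and DHX33 were the 8 lower DEGs and DHX40 the 1 higher, where 11.3% of all genes were lower and 11.4% higher DEGs. The calls of 29 of the 33 lower genes were kept under all 11 alternatives, and those of DDX31, DDX56, DHX37 and DHX57 were not. DESeq2 called 30 lower, and DDX31 (FDR 0.17), DHX37 (FDR 0.19) and DHX57 (FDR 0.074) lost their calls with it. DDX56 lost the call without the second Molm13 shPRMT9 library (log2 −0.10). DDX31 also lost it without the first shCtrl library (−0.11) or either shPRMT9 library (−0.14 and −0.12). DHX37 also lost it without the second shCtrl library (−0.07) or either shPRMT9 library (−0.05 and −0.10). For DHX57 it was also lost without the second shCtrl (−0.14) or the first shPRMT9 library (−0.17).

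In THP1, the log2 fold changes of these genes spanned a narrower range, and most of the called ones were rises. At the same threshold, 13 of 46 (28.3%) were higher and 2 (4.35%) lower, where 19% and 18.6% of the 16294 genes tested were, and 31 were not called. The median log2 fold change was 0.04, with a range from −0.16 to 0.41, against −6e-04 over all genes. The 13 higher genes were DDX1, DDX3X, DDX5, DDX10, DDX24, DDX27, DDX31, DDX52, DHX8, DHX16, DHX35, DHX36 and DHX37, and the 2 lower were DDX17 and DHX15. The calls of 9 of the 13 higher genes were kept under all 11 alternatives. DDX31 lost its call with DESeq2 (FDR 0.20), library totals alone (FDR 0.085), no filter on low counts (FDR 0.13) and a correction for GC content and exon length (FDR 0.14). The call was also lost without either shCtrl library (log2 0.15 and 0.20) or the second shPRMT9 library (0.14). DHX16 lost its call under the same settings, with FDRs of 0.14, 0.067, 0.088 and 0.077 in that order. It was also lost without the second shCtrl (log2 0.09) or the first shPRMT9 library (0.13). DDX10 and DHX36 are described with their roles. The number of lower genes was 0 without the second THP1 shCtrl library and 1 without the first or without the second THP1 shPRMT9 library, and the median was 0.0011 with a correction for GC content and exon length. With that correction the median over all genes in THP1 was −0.0332. By edgeR's test 0 of the 46 were DEGs, where 3.83% of all genes were higher and 2.39% lower DEGs. Also 0 passed the fold limit at an unadjusted P below 0.05 or with DESeq2, although 15 rises and 4 falls had such a P. The groups did not overlap for 21 genes that were higher and 8 that were lower, where 33% of all genes did so in each direction. The 49 genes summed to 6111 and 6102 CPM in shCtrl and to 6284 and 6299 in shPRMT9.

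**Figure D2:**
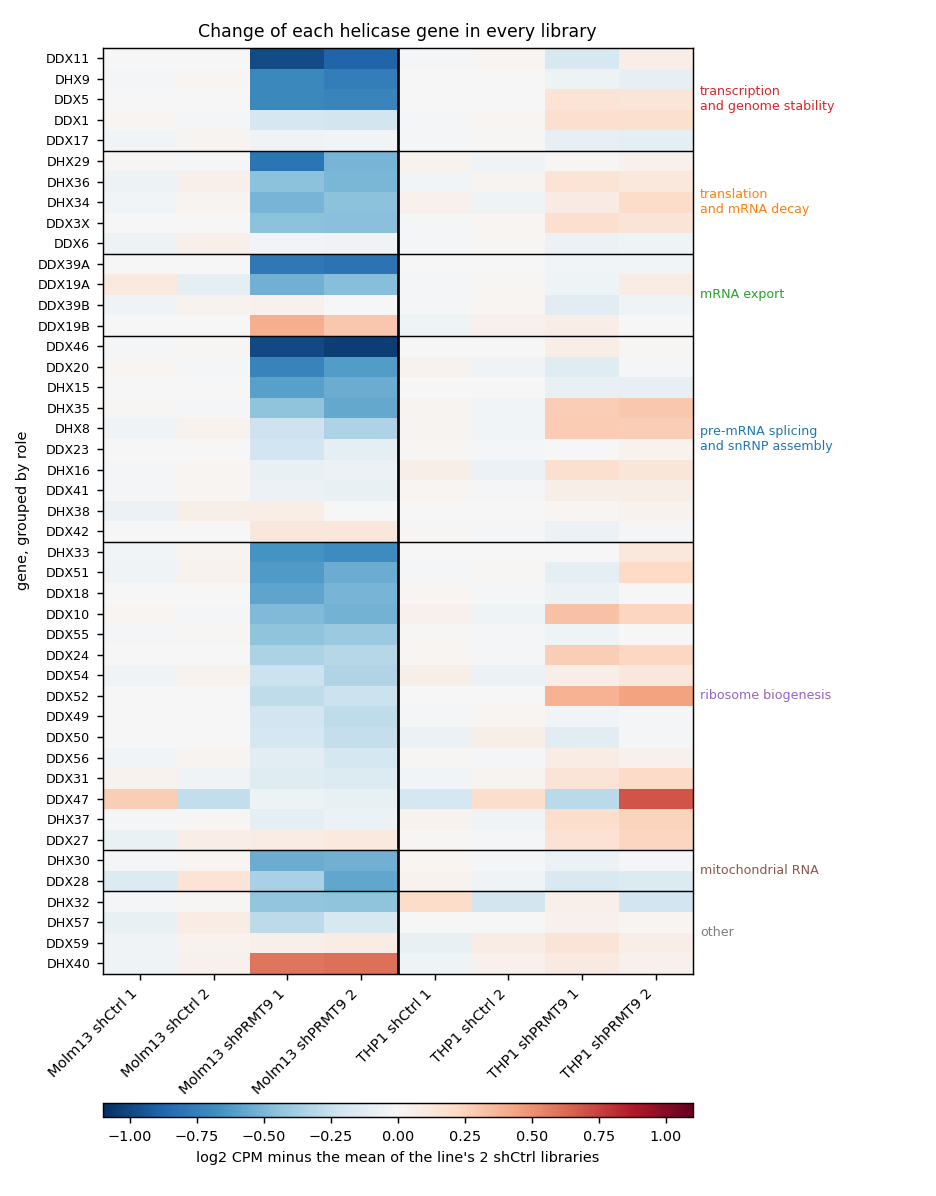
Log2 CPM of the 45 genes tested in both lines in each of the 8 libraries, minus the mean of the 2 shCtrl libraries of the line, with blue for lower and red for higher and genes grouped by role. The 2 Molm13 shPRMT9 columns are mostly blue, with DHX40 and DDX19B in red, and the THP1 columns are pale.

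The effect differed between the lines for most of the family. In a fit of all 8 libraries over 19288 genes, 34 of 46 helicases (73.9%) had a higher log2 fold change in THP1 than in Molm13 and 3 (6.52%), DDX19B, DDX42 and DHX40, a lower one, where 22.8% and 19.4% of all genes did. Of the 34 calls, 26 were kept under all 14 alternatives, and DDX23, DDX28, DDX41, DDX49, DDX50, DDX56, DHX16 and DHX57 each lost theirs without at least 1 library, with DDX41 losing it without any of the 8. Without the first THP1 shCtrl library 5 helicases had a lower log2 fold change in THP1. The median difference was 0.40, against 0.03 over all genes. Of the 45 genes tested in both lines, 11 were called lower in Molm13 and higher in THP1, where 5.52% of the 13476 genes tested in both were. These were DDX1, DDX3X, DDX5, DDX10, DDX24, DDX31, DDX52, DHX8, DHX35, DHX36 and DHX37. With DESeq2 DDX31 was not called in Molm13 (FDR 0.17) or THP1 (FDR 0.20), DHX37 not in Molm13 (FDR 0.19) and DHX36 not in THP1 (FDR 0.093). The THP1 call of DDX10 was lost without the second THP1 shCtrl library (log2 0.23). DDX27 was the 1 gene higher in both lines and DHX15 the 1 lower in both, where 11.5% and 10.8% of all genes were. With DESeq2 DDX27 was not called in Molm13 (FDR 0.21), nor DHX15 in THP1 (FDR 0.059). By edgeR 0 were called higher in Molm13 and lower in THP1, also at an unadjusted P below 0.05 and by DESeq2, where 5.8% of all genes were.

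**Figure D3:**
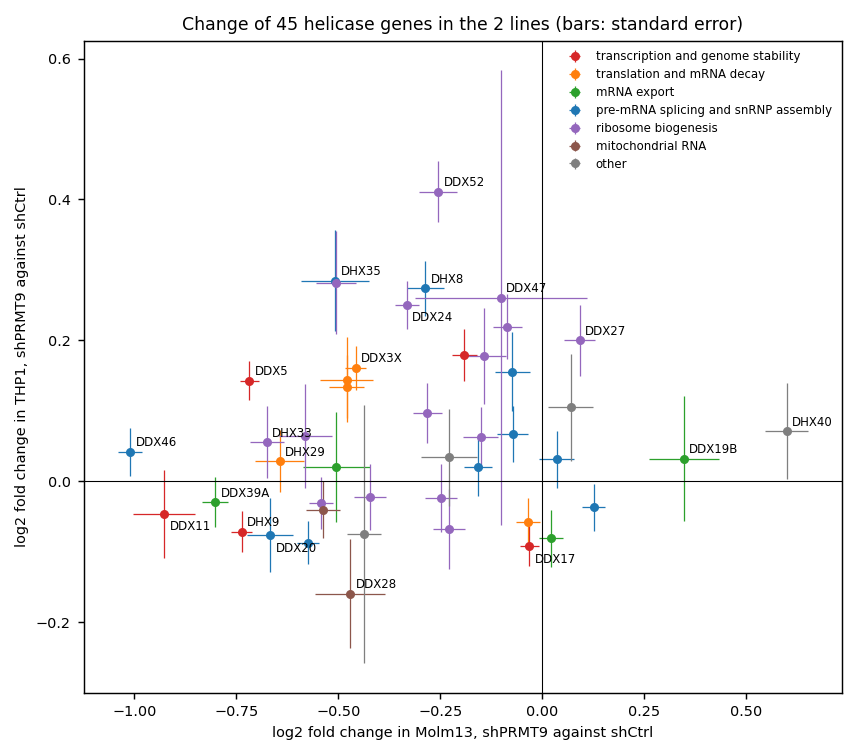
Log2 fold change with shPRMT9 in Molm13 (horizontal) against that in THP1 (vertical) for the 45 helicase genes tested in both, with standard errors as bars and colors for roles. Most points lie left of 0 in Molm13, between −1.01 and 0, and between −0.16 and 0.41 in THP1.

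Among helicases that act in transcription and genome stability, 4 of 5 (80%) fell in Molm13, and 2 (40%) rose and 1 (20%) fell in THP1. The shares over all genes were 33.5% lower and 33.4% higher in Molm13, and 18.6% lower and 19% higher in THP1. With so few genes a role, such counts do not set a role apart. DDX5 (chr17:64499616-64508199, hg38) and DDX17 are close paralogs that serve as transcriptional coregulators and in splicing. DDX5 was at 826.5 and 816.9 CPM in Molm13 shCtrl and 502.0 and 497.0 in shPRMT9, and at 792.6 and 800.1 against 885.0 and 873.5 in THP1. Both groups were apart in each line, with the shPRMT9 libraries lower in Molm13 and higher in THP1. The log2 fold changes were −0.72 ± 0.02 (FDR 1.6e-28) and 0.14 ± 0.03 (FDR 1.5e-04), and they differed by 0.87 ± 0.04 (FDR 4.4e-38). DDX17 was at 962.6 and 1008 CPM against 959.7 and 966.9 in Molm13, where the groups overlapped, and at 744.9 and 756.6 against 707.0 and 701.3 in THP1. Its log2 fold changes were −0.03 ± 0.02 (FDR 0.21) and −0.09 ± 0.03 (FDR 0.011). Without the first Molm13 shCtrl library the former reached −0.07 (FDR 0.0034), and without the second THP1 shCtrl or the second THP1 shPRMT9 library the latter had an FDR of 0.059 or 0.054. The difference between the lines was −0.05 ± 0.04 (FDR 0.33). It passed without the second Molm13 shCtrl library (−0.12, FDR 0.0080) or the first THP1 shCtrl library (−0.10, FDR 0.038).

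DHX9, which resolves R-loops and double-stranded RNA, was at 622.1 and 638.2 CPM in Molm13 shCtrl and 384.7 and 371.9 in shPRMT9. Its THP1 levels were 516.1 and 515.1 against 496.4 and 485.1. The Molm13 fall was −0.74 ± 0.03 (FDR 8.6e-28) on the log2 scale, the THP1 value −0.07 ± 0.03 (FDR 0.059) and the difference 0.68 ± 0.04 (FDR 9.3e-29). The THP1 value passed with library totals alone (−0.10, FDR 0.0066), without a filter on low counts (−0.08, FDR 0.025), with the correction for GC content and exon length (−0.11, FDR 8.0e-04) and in the fit of all 8 libraries (−0.07, FDR 0.0497). DDX11, a DNA helicase of sister chromatid cohesion with a near-identical pseudogene copy that could share its reads, was at 27.5 and 27.8 CPM against 13.96 and 15.04 in Molm13. Its levels in THP1 were 48.2 and 49.5 against 43.3 and 51.3, so the groups overlapped. Its log2 fold changes were −0.93 ± 0.08 (FDR 1.5e-14) and −0.05 ± 0.06 (FDR 0.61), and the latter was 0.07 without the first THP1 shPRMT9 library and −0.17 (FDR 0.030) without the second. DDX1 was counted in this role and is also a subunit of the tRNA ligase complex. It was at 214.4 and 207.7 CPM against 186.2 and 183.6 in Molm13 and at 132.8 and 136.8 against 152.9 and 152.4 in THP1. It fell by 0.19 ± 0.03 (log2, FDR 3.8e-07) in Molm13 and rose by 0.18 ± 0.04 (FDR 2.9e-04) in THP1.

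The 10 helicases of the spliceosome and of snRNP assembly included the gene that fell most. In Molm13 6 (60%) fell (DDX20, DDX23, DDX46, DHX8, DHX15, DHX35) and 1 (10%) rose (DDX42), where 33.5% and 33.4% of all genes did. The median was −0.22 (log2). In THP1 3 (30%) rose (DHX8, DHX16, DHX35) and 1 (10%) fell (DHX15), where 19% and 18.6% of all genes did, and the median was 0.04. DDX46 (chr5:134758771-134855133), the counterpart of yeast Prp5 that helps the U2 snRNP bind the branch point, was at 309.4 and 315.7 CPM in Molm13 shCtrl and 157.5 and 152.9 in shPRMT9. The THP1 libraries were at 213.7 and 211.6 against 223.1 and 214.7. It fell to 0.496 of the shCtrl level in Molm13 (log2 −1.01 ± 0.03, FDR 2.0e-30), was 0.04 ± 0.03 (FDR 0.37) in THP1, and differed by 1.07 ± 0.05 (FDR 1.2e-37). DDX46 was the 1 helicase past a fold limit of 2 in Molm13. Its value lay inside that limit with the correction for GC content and exon length (log2 −0.974). The same held without the second Molm13 shCtrl (−0.9937) or the second Molm13 shPRMT9 library (−0.9788).

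DDX20 (Gemin3), the helicase of the SMN complex that loads snRNPs with Sm proteins, was at 56.0 and 54.4 CPM against 33.3 and 36.2 in Molm13 and at 62.3 and 59.0 against 55.2 and 59.8 in THP1, where the groups overlapped. Its log2 fold changes were −0.67 ± 0.06 (FDR 2.0e-14) and −0.08 ± 0.05 (FDR 0.27). DHX35, a component of the catalytic spliceosome, was at 19.7 and 19.4 CPM against 14.3 and 13.2 in Molm13 and at 20.3 and 19.6 against 24.1 and 24.5 in THP1. It moved in opposite directions, by −0.51 ± 0.08 (FDR 8.3e-07) and 0.28 ± 0.07 (FDR 0.0022). DHX8, which releases spliced mRNA, likewise fell by 0.29 ± 0.05 (log2, FDR 4.2e-07) in Molm13 and rose by 0.27 ± 0.04 (FDR 1.6e-06) in THP1. DHX15, which takes apart the intron lariat spliceosome, fell in both lines but by unequal amounts, with −0.57 ± 0.03 (FDR 7.0e-23), −0.09 ± 0.03 (FDR 0.025) and a difference of 0.50 ± 0.04 (FDR 3.2e-19). Its THP1 call was lost without the first (FDR 0.083) or second (FDR 0.071) THP1 shCtrl library and without the second THP1 shPRMT9 library (FDR 0.098), and also with DESeq2 (FDR 0.059) and with the replicate block (FDR 0.060). DDX42 rose by 0.13 ± 0.03 (log2, FDR 1.2e-04) in Molm13, and with a correction for GC content and exon length the value was 0.02 (FDR 0.52).

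Ribosome biogenesis was the largest role, with 15 helicases that work on pre-ribosomal RNA. In Molm13 13 (86.7%) fell and 1 (6.67%), DDX27, rose, where 33.5% and 33.4% of all genes did, and the median was −0.26. In THP1 6 (40%) rose (DDX10, DDX24, DDX27, DDX31, DDX52, DHX37), where 19% of all genes did. There 0 fell by edgeR, by DESeq2 or with an unadjusted P below 0.05, where 18.6% of all genes fell by edgeR, and the median was 0.10. Their summed level was 1643 and 1669 CPM in Molm13 shCtrl and 1336 in each shPRMT9 library, and 1145 and 1122 against 1218 and 1254 in THP1. The summed groups did not overlap in either line and lay in opposite order. DHX33, which takes part in ribosomal RNA synthesis, fell most, from 101.3 and 105.6 CPM to 65.5 and 64.1 (log2 −0.68 ± 0.04, FDR 1.9e-18). In THP1 it was at 61.2 and 61.3 against 61.0 and 66.3 CPM (0.06 ± 0.05, FDR 0.43). C1QBP overlaps 28.1% of DHX33 on the same strand, so the counts of DHX33 are less certain. DDX52, a helicase of the small ribosomal subunit, rose most of all 49 genes in THP1, from 76.8 and 76.3 to 99.6 and 104.0 CPM (log2 0.41 ± 0.04, FDR 9.5e-09). In Molm13 it fell from 69.0 and 69.3 to 56.9 and 58.9 CPM (−0.26 ± 0.05, FDR 5.1e-06), and the difference between the lines was 0.68 ± 0.06 (FDR 3.4e-16). DDX10 (−0.50 and 0.28) and DDX24 (−0.33 and 0.25) also fell in Molm13 and rose in THP1, although DDX10 had an FDR of 0.054 in THP1 without the second shCtrl library. The rise of DDX27 in Molm13 was 0.09 ± 0.04 (FDR 0.035). The call was lost without the first Molm13 shCtrl library (0.01) or the second shPRMT9 library (0.09). It was also lost with DESeq2 (FDR 0.21), without a filter on low counts (FDR 0.15) and in the fit of all 8 libraries (FDR 0.079). With the correction for GC content and exon length the value was −0.04 (FDR 0.32).

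Of the mitochondrial helicases, both fell in Molm13 and neither was called in THP1 in the fit of that line. For comparison, 33.5% of all genes fell in Molm13, and 19% rose and 18.6% fell in THP1. DHX30, which serves mitochondrial ribosome assembly, was at 96.4 and 99.6 CPM against 67.0 and 67.9 in Molm13 and at 110.3 and 107.7 against 104.5 and 107.5 in THP1 (log2 −0.54 ± 0.04, FDR 3.0e-15, and −0.04 ± 0.04, FDR 0.48). DDX28, which lies wholly within DUS2 on the opposite strand, was at 21.8 and 26.9 CPM against 18.9 and 16.3 in Molm13 and at 20.6 and 19.4 against 17.8 and 18.0 in THP1. Its log2 fold changes were −0.47 ± 0.09 (FDR 4.9e-06) and −0.16 ± 0.08 (FDR 0.11), and the latter was called with the correction for GC content and exon length (−0.20, FDR 0.027). The difference of 0.32 ± 0.12 (FDR 0.020) lost its call without any of the 4 second libraries, with an FDR of 0.51 without Molm13 shCtrl 2, 0.34 without Molm13 shPRMT9 2, 0.11 without THP1 shCtrl 2 and 0.062 without THP1 shPRMT9 2.

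The mRNA export helicases come as paralog pairs. Over all genes, 33.5% fell and 33.4% rose in Molm13, and 18.6% fell and 19% rose in THP1. In Molm13 DDX39A fell and DDX39B was not called, while DDX19A fell and DDX19B rose, and in THP1 none of the 4 was called with TMM scaling by edgeR, by DESeq2 or at an unadjusted P below 0.05. DDX39A (chr19:14408819-14419383) and DDX39B (UAP56) load export factors onto spliced mRNA. DDX39A, whose upstream region is printed above, fell from 224.1 and 222.7 CPM to 129.3 and 127.1 in Molm13 (log2 −0.80 ± 0.03, FDR 1.1e-25), and was at 167.9 and 166.8 against 163.7 and 164.2 in THP1 (−0.03 ± 0.04, FDR 0.56). The difference between the lines was 0.79 ± 0.05 (FDR 6.8e-27). DDX39B was at 249.5 and 261.7 CPM against 264.8 and 254.1 in Molm13, with overlapping groups, and at 124.1 and 128.5 against 116.7 and 122.1 in THP1 (0.02 ± 0.03, FDR 0.54, and −0.08 ± 0.04, FDR 0.11). DDX39B lies inside a listed read-through gene on the same strand, so its counts are uncertain. With the correction for GC content and exon length its values were −0.09 (FDR 0.0034) in Molm13 and −0.13 (FDR 0.0017) in THP1, and with library totals alone it was also called lower in THP1 (−0.11, FDR 0.032). Its difference between the lines, −0.09 ± 0.05 (FDR 0.14), passed without the second Molm13 shCtrl library (−0.16, FDR 0.012), the second Molm13 shPRMT9 library (−0.16, FDR 0.022), the first THP1 shCtrl library (−0.16, FDR 0.014) or the second THP1 shPRMT9 library (−0.16, FDR 0.0085).

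DDX19A and DDX19B act at the cytoplasmic face of the nuclear pore. DDX19A fell from 24.0 and 20.7 CPM to 15.4 and 16.1 in Molm13 (log2 −0.50 ± 0.08, FDR 6.1e-07), while DDX19B rose from 13.8 and 13.7 to 18.2 and 16.9 (0.35 ± 0.09, FDR 4.4e-04). In THP1 DDX19A was at 18.8 and 19.0 against 18.3 and 20.1 CPM and DDX19B at 13.12 and 14.04 against 14.26 and 13.54, so the groups overlapped for both (0.02 ± 0.08 and 0.03 ± 0.09). The paralogs are near-identical and 1 listed gene overlaps 97% of DDX19A and 79.1% of DDX19B on their strand, so the split of reads between them is uncertain. The difference between the lines was 0.54 ± 0.12 (FDR 6.7e-05) for DDX19A and −0.30 ± 0.13 (FDR 0.0496) for DDX19B. The latter was lost without 5 of the 8 libraries left out in turn, with FDRs of 0.063 and 0.064 (Molm13 shCtrl 1 and 2), 0.13 (Molm13 shPRMT9 1), 0.12 (THP1 shCtrl 2) and 0.073 (THP1 shPRMT9 2). It was also lost with DESeq2 (FDR 0.15), without a filter on low counts (FDR 0.091), with the correction for GC content and exon length (FDR 0.084) and with the replicate block (FDR 0.057).

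**Figure D4:**
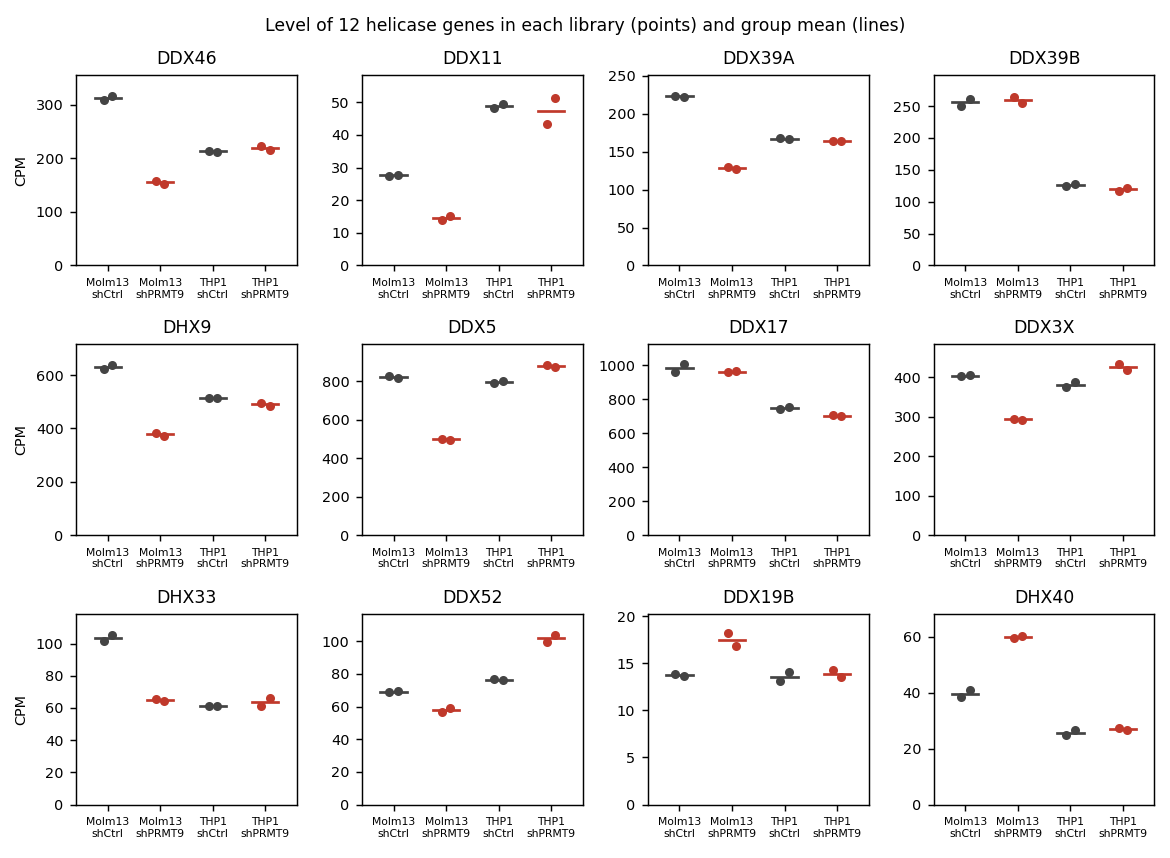
CPM of 12 helicase genes in each library (points) with the group mean (lines), gray for shCtrl and red for shPRMT9, on axes that start at 0. DDX39A and DDX5 fall in Molm13 while their paralogs DDX39B and DDX17 stay near the shCtrl level, DHX40 rises from about 39.7 to 60.0 CPM, and DDX52 falls in Molm13 and rises in THP1.

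In translation and mRNA decay 4 of 5 helicases (80%) fell in Molm13 (median −0.48), where 33.5% of all genes did. DDX3X and DHX36 (40%) rose in THP1 (median 0.13), where 19% of all genes did. DDX3X (chrX:41333348-41364472), which helps ribosomes pass structured leaders, was at 402.3 and 405.0 CPM against 295.4 and 292.8 in Molm13 and at 375.1 and 387.2 against 433.1 and 419.3 in THP1. The groups were apart in both lines and in opposite order. Its log2 fold changes were −0.46 ± 0.03 (FDR 6.3e-20) and 0.16 ± 0.03 (FDR 1.4e-04), with a difference of 0.63 ± 0.04 (FDR 2.7e-25). DHX29, an initiation factor bound to the small subunit, fell most of this role, from 56.9 and 56.0 to 32.4 and 39.6 CPM in Molm13 (−0.64 ± 0.06, FDR 9.1e-13). Without the first Molm13 shPRMT9 library the value was −0.50, inside the fold limit for DEGs. In THP1 DHX29 was at 89.6 and 84.8 against 88.0 and 89.8 CPM (0.03 ± 0.04, FDR 0.66). RP11-506H20.1 overlaps 75.7% of DHX29 on the opposite strand, and the strand setting of the counts is not known. DHX36, which unwinds G-quadruplexes, moved by −0.48 ± 0.04 (FDR 4.0e-13) and 0.13 ± 0.04 (FDR 0.018). Its rise in THP1 was not called with DESeq2 (FDR 0.093), library totals alone (FDR 0.062) or no filter on low counts (FDR 0.066). That call was also lost without the first THP1 shCtrl (log2 0.10) or the first THP1 shPRMT9 library (0.12). DHX34, of nonsense-mediated decay, fell by 0.48 ± 0.07 (log2, FDR 1.5e-08) in Molm13. DDX6, the P-body helicase that acts in decapping, had values of −0.04 ± 0.03 (FDR 0.28) and −0.06 ± 0.03 (FDR 0.18).

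DHX40, a DEAH-box gene placed in no role, was the 1 gene to rise past the fold limit in Molm13. It was at 38.3 and 41 CPM in shCtrl and 59.6 and 60.4 in shPRMT9, a 1.51-fold rise (log2 0.60 ± 0.05, FDR 1.0e-13), with groups apart. The Molm13 value lay inside the fold limit without a filter on low counts (log2 0.5841) and without the first Molm13 shCtrl library (0.5426). In THP1 DHX40 was at 24.9 and 26.6 against 27.5 and 26.6 CPM (0.07 ± 0.07, FDR 0.45), and the difference was −0.51 ± 0.09 (FDR 4.9e-07). No listed gene overlaps it. DHX32 fell by 0.44 ± 0.04 (log2, FDR 2.1e-12) and DHX57 by 0.23 ± 0.07 (FDR 0.0033) in Molm13, and DDX59 was at 0.07 ± 0.06 (FDR 0.27). In THP1 these 4 genes were not called, nor was DDX25 (−0.03 ± 0.42, FDR 0.96).

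Among related helicases without a DDX or DHX name, 3 of 15 were called higher and 9 lower in Molm13, with a median of −0.16 (log2), where 33.4% of all genes were called higher and 33.5% lower. EIF4A1, counted among the 9 lower, was at 17.3 and 17.7 CPM in Molm13 shCtrl, where EIF4A2 was at 406.4 and 411.5. The treatment of reads with several hits is not known, so the counts of EIF4A1 are uncertain. ASCC3, which separates collided ribosomes, had the lowest value (−0.57, FDR 1.1e-21), and TDRD9 was highest at 2 and 3 counts against 15 and 22, too few in shCtrl for a fold. TDRD9, counted among the 3 higher, passed the filter on low counts only through shPRMT9. In THP1 5 of 13 were higher and 0 lower by edgeR, with 6 and 0 at an unadjusted P below 0.05 and 3 and 0 by DESeq2, where 19% and 18.6% of all genes were called by edgeR. SKIV2L, the helicase that feeds RNA to the cytoplasmic exosome, had the highest value (0.34, FDR 2.1e-07) and DICER1 the lowest (−0.05, FDR 0.37).

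Lists of proteins that work with these helicases were read beside the shares of all genes, of which 33.4% were called higher and 33.5% lower in Molm13 and 19% and 18.6% in THP1. Of the TREX complex around DDX39B, 5 of 10 fell in Molm13 by edgeR and 3 by DESeq2. There 0 rose by edgeR, by DESeq2 or at an unadjusted P below 0.05. The values ran from ALYREF at −1.14 (FDR 1.4e-27) to THOC6 at 0.07 (FDR 0.33). In THP1 1 rose (THOC2, 0.13, FDR 0.0037) and 1 fell (ERH, −0.17, FDR 5.2e-04). ALYREF, the export adaptor, was at 146.5 and 141.1 CPM against 66.4 and 64.7 in Molm13. All 5 genes listed with DDX1 in the tRNA ligase complex fell in Molm13, from FAM98B (−0.93, FDR 1.6e-19) to C14orf166 (−0.26, FDR 3.8e-08). In THP1 the ligase RTCB rose by 0.28 (log2, FDR 1.5e-06) and FAM98A rose, while FAM98B fell by 0.50 (FDR 7.0e-07) and C14orf166 fell. The 3 pore partners of DDX19A and DDX19B fell in Molm13, from NUPL2 (−0.50, FDR 2.5e-10) to NUP214 (−0.14, FDR 4.6e-04). In THP1 GLE1 fell (−0.15, FDR 0.0038) and NUP214 was at 0.03 (FDR 0.63).

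Of the SMN complex of DDX20, 4 of 7 fell and 1 rose in Molm13, from STRAP (−0.68, FDR 3.9e-21) to GEMIN7 (0.43, FDR 1.4e-05). In THP1 only STRAP was called, at −0.20 (FDR 4.2e-04), with GEMIN8 at −0.29 (FDR 0.059) and GEMIN2 at 0.12 (FDR 0.37). Of the G-patch proteins that activate DHX helicases, 4 of 10 (40%) fell and 2 (20%) rose in Molm13, near the 33.5% and 33.4% of all genes, from PINX1 (−0.85, FDR 1.3e-10) to the splicing regulator RBM5 (0.67, FDR 1.1e-22). In THP1 3 (30%) rose and 1 (10%) fell, where 19% and 18.6% of all genes did, from NKRF (−0.16, FDR 0.021) to the cap methyltransferase CMTR1 (0.62, FDR 9.8e-12), which was at 62.3 and 58.9 CPM against 91.8 and 94.8. Of the mRNA decay factors around DDX6, 6 of 9 fell and 2 rose in Molm13, from the decapping enzyme DCP2 (−0.52, FDR 1.3e-16) to its activator DCP1A (0.27, FDR 1.3e-06). In THP1 3 rose and 1 fell, from DCP2 (−0.26, FDR 3.6e-06) to PATL1 (0.31, FDR 2.2e-07).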

How the data were processed

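The 8 mRNA-seq libraries were grouped by their labels. The submitters' processing notes name TopHat2 2.0.8, HTSeq 0.11.2, edgeR 3.30.3 and hg38, and the authors deposited raw counts of reads on each gene, not normalized, in 1 table a line. The strand setting and the treatment of reads with several hits are not given in the sources used here. Symbols and exon lengths came from the Molm13 table.

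The counts were analysed here in R 4.3.3 with edgeR 4.0.16 (filterByExpr, TMM, quasi-likelihood test, no replicate block), each line alone, and all 8 libraries for the difference between the lines. DEGs followed the fold, FDR and RPKM limits of the study's methods. Each standard error is the size of the log2 fold change over the square root of its F statistic. On simulated counts with 200 genes changed 2-fold the test recovered 183 in Molm13 with 7 unchanged genes called, 190 in THP1 with 10, and 174 of the difference with 10. The simulation used the same spread for every gene. Its changes were larger than those of most helicases and touched far fewer genes than were called here. Recovery and false calls for small changes were therefore not tested. Alternatives were DESeq2 1.42.0, other scalings, filters and limits, a GC content and exon length correction, a replicate block, a common fit and leaving out each library.

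The members and lists were chosen with earlier results of these data known. Values in every library are given for PRMT9, DDX3X, DEGs, the member with the largest absolute log2 fold change of each role and line, the 5 with the smallest FDR for the difference, and the 3 paralog pairs, and of the other lists the highest and lowest value in each line are given. DHX8, DHX15, DDX6, DDX10, DDX24, DDX27, DDX42, DHX32, DHX34, DHX36, DHX57, DDX59, DDX4, DDX43 and DDX53 lie outside that rule and were chosen after their values were seen, as were FAM98A, the promoters printed and the levels described. Upstream sequences are from RefSeq. No per-sample column was left unused.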

Additional observations from a re-analysis of the deposited data

Results flagged for a closer look

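The effect of shPRMT9 differed between THP1 and Molm13 for 17 of the 20 helicases named by rule. The difference itself was tested (edgeR's quasi-likelihood test, all 8 libraries, FDR below 0.05). The rule took in genes with the smallest FDR for this same difference. It also took in DEGs and the largest absolute log2 fold change of each role and line. The count of 17 therefore follows in part from the selection and does not stand for the family. Of all 46 helicases tested, 34 were higher and 3 lower in THP1, where 22.8% and 19.4% of all genes were. The log2 fold change was higher in THP1 by 1.07 for DDX46, 0.89 for DDX11, 0.87 for DDX5, 0.81 for DHX35 and 0.79 for DDX39A. It was higher by 0.74 for DHX33, by 0.68 for DHX9, DHX29 and DDX52, by 0.63 for DDX3X and by 0.60 for DDX20. It was higher by 0.54 for DDX19A, 0.51 for DHX30, 0.38 for DDX1 and 0.32 for DDX28. For 2 genes it was lower in THP1, with −0.51 for DHX40 and −0.30 for DDX19B. The calls of DDX19B and DDX28 did not hold under every alternative. Groups of 2 libraries were not searched for outlying samples.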

How the results depend on the processing

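In Molm13, the main results were 4 higher and 33 lower calls, 9 DEGs and a median of −0.29, which stayed negative under the 11 alternatives tried. The correction for GC content and exon length gave 2 higher calls, a median of −0.42 and 15 DEGs, the common fit of all 8 libraries a median of −0.32, and a fold limit of 2 gave 1 DEG. The median over all genes in Molm13 was −0.0618 with the GC and length correction. Leaving out each library gave medians between −0.3309 and −0.2777. In THP1, the 2 lower calls became 5 with library totals alone, 1 with DESeq2, 7 with the GC and length correction and between 0 and 2 when single libraries were dropped: 0 without the second THP1 shCtrl library and 1 without the first or without the second THP1 shPRMT9 library. The THP1 median of 0.04 was 0.0109 with library totals alone, 0.0205 without a filter on low counts, 0.0011 with the GC and length correction and between 0.037 and 0.0493 with a library left out. The THP1 median over all genes also moved. It was −0.0276 with library totals alone, 0.0161 without a filter on low counts and −0.0332 with the GC and length correction. For the difference between the lines, the 3 lower calls became 5 with library totals alone and between 2 and 5 when single libraries were dropped, 5 of them without the first THP1 shCtrl library. The median difference of 0.40, whose alternatives were added after seeing the data, was 0.38 with RLE size factors (0.3774) and DESeq2 (0.3771), 0.36 with library totals alone, 0.48 with the GC and length correction and between 0.3652 and 0.4384 with a library left out. The median difference over all genes was −0.0147 with library totals alone and 0.0549 with the GC and length correction. The shares of all genes called moved too. In THP1, 21.4% of all genes were called lower with library totals alone, 12.4% with DESeq2 and 23.5% with the GC and length correction, against 18.6%. In Molm13, the GC and length correction gave 29.7% higher and 37.7% lower, against 33.4% and 33.5%. For the difference, library totals alone gave 21.3% lower in THP1, against 19.4%. The cause of these shifts was not tested.

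The replicate numbers were shared by the groups, but deviations of same-numbered libraries correlated at −0.087 in Molm13 and −0.015 in THP1, so they were not taken to pair the samples. With the replicate block, THP1 had 1 lower call instead of 2 (DHX15 was lost), Molm13 still had 33, and the difference between the lines lost DDX19B (−0.3026, FDR 0.057).

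Among the helicases named by rule, the signs that turned were of values that had not been called. DDX27, called higher in Molm13, also turned, to −0.0425 with the GC and length correction. With the GC and length correction they were −0.0911 for DDX39B in Molm13 (called there) and −0.0306 for DDX19A, −0.0266 for DDX19B and −0.0017 for DHX29 in THP1, and with library totals alone −0.0069 for DDX19A in THP1. With single libraries dropped, values in Molm13 ran from −0.0726 to 0.0033 for DDX17 and from −0.0202 to 0.0607 for DDX39B. Those in THP1 ran from −0.1747 to 0.0723 for DDX11, −0.0478 to 0.0855 for DDX19A, −0.0172 to 0.0808 for DDX19B, −0.7381 to 0.4324 for DDX25, −0.0145 to 0.0652 for DHX29 and −0.0065 to 0.1153 for DHX33, and the difference for DDX25 from −0.0644 to 3.2818. With 2 libraries a group, small changes of genes with few counts, such as DDX25 and DDX47, could not be resolved at this depth.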
